A study of Mus musculus with 2 samples.

Results

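The 7 genes described here, Mettl3, Mettl14, Wtap, Zc3h13, Rbm15, Rbm15b and Cbll1, encode the nuclear complex that writes N6-methyladenosine (m6A) on RNA. They were chosen by name, and each symbol was found once among the 30905 genes of both libraries, 7 of 7. The data were single-cell RNA-seq counts of mouse retinas at postnatal day 7, with 1 control library and 1 library of Mettl3 conditional knockout retinas (Mettl3-CKO, also called mutant below), each a pool of 2 retinas from the same litter. The Mettl3-CKO retinas carried floxed Mettl3 alleles and the Six3-Cre transgene, which expresses Cre in retinal progenitor cells (RPCs). The genotype of the littermates used as controls, and so whether they carried Cre or a floxed allele, is not given in the sources used here. The question was how the writer genes are expressed over retinal cell classes, and whether the partners of Mettl3 differ between the libraries when Mettl3 is deleted. Each group was 1 library, so no test between genotypes was possible and no p-value was computed. All 95% intervals cover counting error only, and the difference between the libraries also holds the difference between their animals and preparations.

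m6A is the most abundant internal mark of mRNA and is placed by METTL3, the catalytic subunit, in a heterodimer with METTL14, which holds the RNA substrate. WTAP anchors this core to a larger regulatory assembly. In it ZC3H13 keeps the complex in the nucleus, RBM15 and RBM15B bind RNA and bring the complex to its targets, CBLL1 (also called HAKAI) is a RING-type E3 ubiquitin ligase, and VIRMA is a large scaffold. Marked transcripts are bound by readers such as the YTH proteins, and the mark is linked to faster decay of many mRNAs.

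The core subunits differ at the catalytic site. METTL3 has a DPPW motif in its active site, and METTL14, which is thought not to catalyse, has EPPL in the matching place. The lines below are stretches of coding sequence read from the GENCODE transcripts of GRCm38, 5′ to 3′, with the codons of these motifs in capitals.
Mettl3: gtgatggctGACCCACCTTGGgatattcac
Mettl14: attctcctgGAGCCCCCTCTGgaagaatac
The Mettl3 stretch lies at chr14:52297572-52297601, on the minus strand, in exon 6 of 11, and its capitals are codons 395 to 398. The Mettl14 stretch lies at chr3:123374796-123374825, also on the minus strand, in exon 7 of 11, and its capitals are codons 192 to 195. Which Mettl3 exons the floxed allele removes is not given in the sources used here. Libraries of this kind count each RNA molecule once at its 3′ end, so a transcript that lacked internal exons, these codons among them, would still be counted as Mettl3.

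Only part of each library could be read, 3994 of 5995 control and 3109 of 6992 mutant cells. These cells held 22181683 (control) and 20830028 (mutant) unique molecular identifiers (UMIs, 1 per captured RNA molecule), mitochondrial genes included. Without mitochondrial genes they held 20955138 and 19957693 UMIs, with medians of 4520.5 and 5207 UMIs per cell. Levels are given as UMIs of a gene per 1000000 UMIs (CPM), with mitochondrial genes left out of the totals. Cells were clustered and clusters named from marker genes, which gave 8 classes: RPC-like, Müller-like, neurogenic progenitor-like, precursor-like (rod and bipolar precursors), rod-like, cone-like, amacrine-like and microglia-like. The classes held from 34 to 978 control cells and from 30 to 531 mutant cells. Another 1595 and 1159 cells stayed unnamed, a cluster with the bipolar genes Vsx1 and Isl1 among them. Unnamed clusters of 320 control and 190 mutant cells, and of 35 and 101, were nearest to the rod markers. Those of 322 and 228, 273 and 208, and 242 and 183 cells were nearest to the precursor markers. The rod-like and precursor-like values leave these cells out. The border between neurogenic progenitor-like and Müller-like cells depended on the clustering. A cluster of 138 control and 184 mutant cells, with Sox8 and Hes5 among its top genes, was named neurogenic progenitor-like. In a finer clustering (resolution 2), a cluster of 145 control and 249 mutant cells with these genes was named Müller-like. Cells of the mutant library with at least 4000 UMIs were split by Xist, the noncoding RNA of the inactive X chromosome. Xist was seen in 1400 of them and not in 770, whereas only 0.899% of the 2446 such control cells held it, so the sex of the pooled retinas differed between the libraries and the values of both groups are given below.

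Mettl3 (ENSMUSG00000022160, 52294841 to 52305128 on chromosome 14) was taken first, since its level bears on the labels. It was at 39.5 CPM (36.9 to 42.3, 828 UMIs) over all control cells. Over all mutant cells it was at 33.1 CPM (30.6 to 35.7, 660 UMIs). The ratio of mutant to control was 0.837 (0.754 to 0.928). The deleted gene was thus lower in the library labelled as its knockout, and most of its 3′ end signal was still present. By immunostaining, the study reported efficient loss of METTL3 protein in the central retina. Whole retinas, periphery included, went into the single-cell libraries. The source of the remaining Mettl3 signal was not tested. Of 13146 genes with at least 50 UMIs over both libraries, 1384 had a lower ratio than Mettl3, which was 10.5%. A counting interval wholly below 1, as for Mettl3, was seen in 17.4% of these genes, so the Mettl3 difference was not unusual among genes by itself. Mettl3 shares 1561 bases at its 3′ end, the end that is counted, with Tox4, which lies on the other strand. The sources used here do not say if reads were counted by strand. Tox4 had a ratio of 1.01 (0.935 to 1.09).

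**Figure D1:**
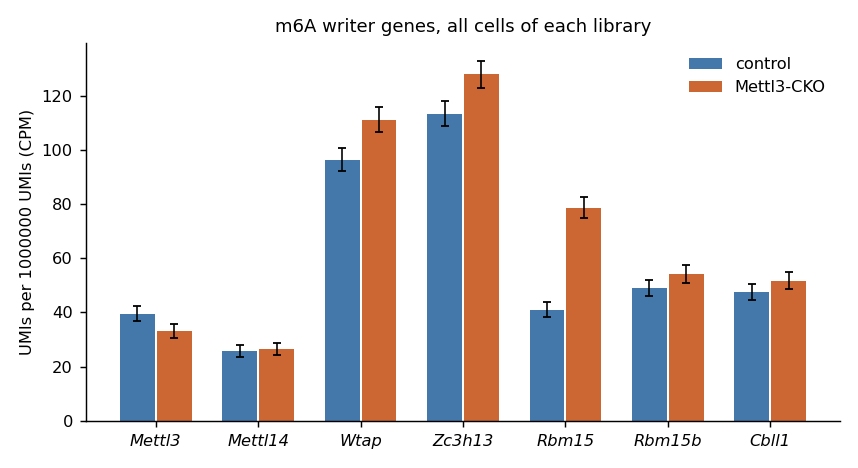
Level of each writer gene over all cells of the control (blue) and Mettl3-CKO (orange) libraries, in CPM. Bars are the level of 1 library each and error bars are exact Poisson 95% intervals; Rbm15 goes from 40.9 to 78.6 CPM, and Mettl3 is the only one of the 7 with a lower bar in the Mettl3-CKO library.

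All 6 partners of Mettl3 were at a higher level over all cells of the mutant library than of the control library. For 4 of them, Wtap, Zc3h13, Rbm15 and Rbm15b, the counting interval of the ratio lay above 1, against 23.1% of the 13146 genes. The median ratio of the 6 partners was 1.12, and that of all these genes was 1.01. Rbm15 was the one partner past 1.5-fold, a size that 5.26% of genes reached upward and 3.29% downward. Control cells held Rbm15 at 40.9 CPM (38.3 to 43.8, 858 UMIs) and mutant cells at 78.6 CPM (74.8 to 82.6, 1569 UMIs), a ratio of 1.92 (1.77 to 2.09). Only 192 of the 13146 genes, or 1.46%, had a higher ratio.

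Mettl14, the other subunit of the catalytic core, was nearly level between the libraries. It was at 25.7 CPM (23.6 to 28.0) in control cells and at 26.4 CPM (24.2 to 28.7) in mutant cells, with a ratio of 1.02 (0.907 to 1.16). A difference of Mettl14 within these bounds was not detectable at this depth. Wtap, the anchor of the core, was at 96.4 CPM (92.2 to 100.7) and 111 CPM (106.5 to 116), a ratio of 1.15 (1.08 to 1.22). Zc3h13 was at 113 CPM (108.8 to 118) and 128 CPM (123 to 133), a ratio of 1.13 (1.07 to 1.19).

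Rbm15b, the paralog of Rbm15, did not share the size of its difference. It was at 49.0 CPM (46.0 to 52.1) in the control library and 54.1 CPM (50.9 to 57.4) in the mutant library, a ratio of 1.10 (1.01 to 1.20), and this interval did not overlap that of Rbm15. It included 1 under 3 of the 6 alternatives that gave an interval, those limited to cells with at least 4000 UMIs. Rbm15b is a gene of 1 exon (106880918 to 106887428 on chromosome 9, minus strand). All 6511 bases of it lie within the annotated span of Manf on the same strand, and 75 bases overlap Dcaf1 on the other, so its counts are less certain. Rbm15 (107325421 to 107333673 on chromosome 3, minus strand, 2 exons) overlaps no other annotated gene. Cbll1, which overlaps the antisense gene Gm29542 over 932 bases, was at 47.6 CPM (44.7 to 50.6) and 51.6 CPM (48.5 to 54.9), and the interval of its ratio, 1.08 (0.993 to 1.18), included 1. The 7 genes summed to 412 CPM (404 to 421) in control cells and 483 CPM (473 to 492) in mutant cells, a ratio of 1.17 (1.14 to 1.20).

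Counted per partner UMI over all cells, the ratio for Mettl3 lay further below 1 than the 0.837 of its own level. There were 828 Mettl3 UMIs beside 7814 partner UMIs in the control library, and 660 beside 8972 in the mutant library. The number of Mettl3 UMIs per partner UMI in mutant cells was 0.694 (0.626 to 0.770) of that in control cells. The same ratio was 0.513 (0.341 to 0.776) in RPC-like cells, 0.564 (0.347 to 0.924) in cone-like cells, 0.618 (0.449 to 0.845) in Müller-like cells, 0.634 (0.407 to 0.973) in precursor-like cells and 0.651 (0.497 to 0.847) in rod-like cells. In neurogenic progenitor-like cells it was 0.864 (0.662 to 1.13) and in amacrine-like cells 0.746 (0.383 to 1.45), and both of these intervals included 1. This ratio holds the higher partner UMIs in its denominator, and in RPC-like cells Rbm15 alone went from 116 to 444 UMIs. For the level of Mettl3 itself, the interval lay below 1 only in precursor-like cells among these classes. No share over all genes was taken for the ratio per partner UMI.

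By class, the Mettl3 level was lower in the mutant library in 6 of the 8 classes. Only in precursor-like cells did the interval lie below 1, with 49.7 CPM (38.2 to 63.6) in control cells, 31.8 CPM (22.1 to 44.2) in mutant cells and a ratio of 0.639 (0.410 to 0.981), where 6.14% of 6512 genes had such an interval. The interval stayed below 1 under only 4 of 9 alternatives, and the ratio was 0.885 where each cell was named by its own markers. RPC-like cells were at 29.0 and 21.6 CPM (ratio 0.745, 0.495 to 1.13), and Müller-like cells at 37.0 and 31.1 CPM (ratio 0.839, 0.610 to 1.15). Rod-like cells were at 43.3 and 34.1 CPM (ratio 0.787, 0.601 to 1.02), cone-like cells at 38.9 and 26.9 CPM (ratio 0.692, 0.426 to 1.13) and amacrine-like cells at 38.6 and 29.6 CPM (ratio 0.767, 0.394 to 1.49). Neurogenic progenitor-like cells were level, at 39.6 CPM (32.4 to 47.9) and 40.6 CPM (33.9 to 48.3), a ratio of 1.03 (0.786 to 1.34). Microglia, which enter the retina from outside and do not descend from RPCs, held only 2 control and 3 mutant UMIs of Mettl3, too few for a direction. Of the 28 pairs of classes, none had Mettl3 ratios that differed from each other beyond counting error.

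In order of level in the control library, Mettl3 was highest in precursor-like cells, then in rod-like, neurogenic progenitor-like, cone-like, amacrine-like, Müller-like and RPC-like cells, and lowest in microglia-like cells at 9.39 CPM (1.14 to 33.9). No class differed from the next in this order beyond counting error. The highest was 5.30 times the lowest (1.41 to 44.7). Leaving microglia-like cells aside, Mettl3 ranged from 29.0 to 49.7 CPM over the control classes. After each cell was thinned to 2000 UMIs, a Mettl3 UMI was seen in 7.27% (6.38 to 8.25) of control and 6.34% (5.44 to 7.35) of mutant cells. Without thinning these shares were 17.7% and 18.3%, at medians of 4520.5 and 5207 UMIs per cell. No retinal class is known to lack the writer genes, so the share that free RNA gives could not be measured for them.

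**Figure D2:**
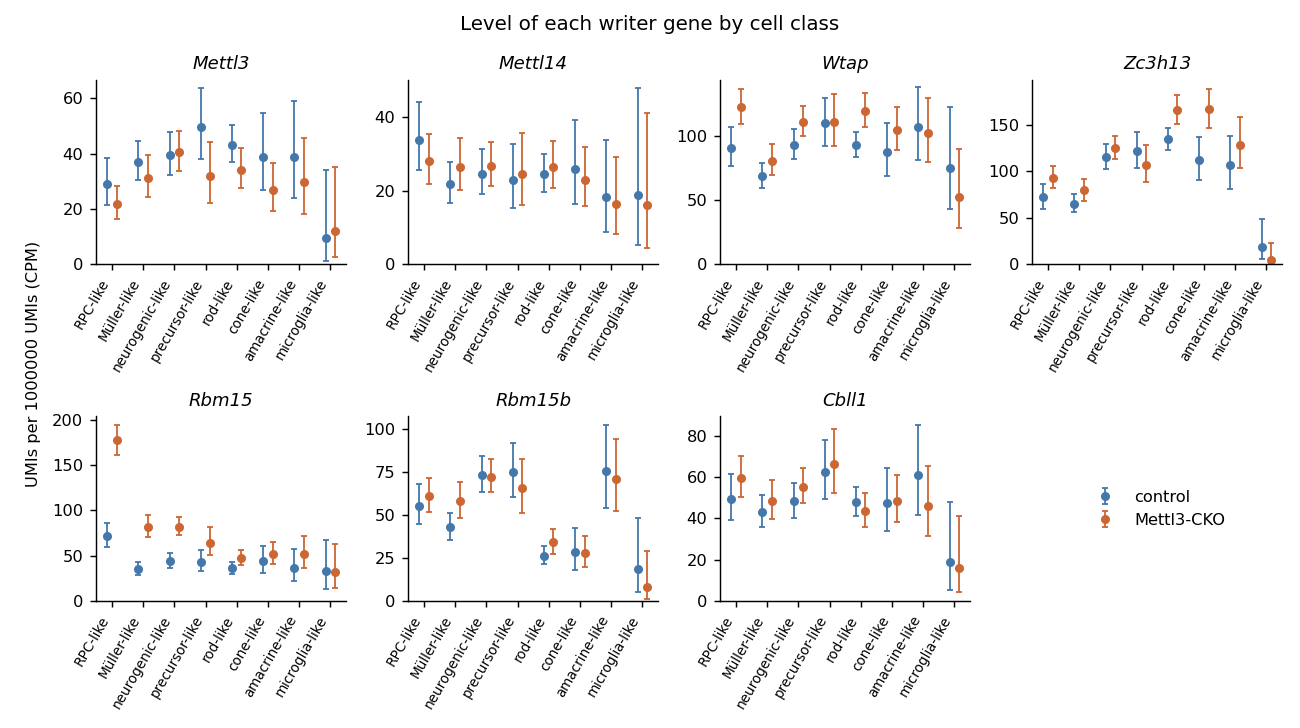
Level of each writer gene in the 8 marker-named classes, in CPM, in the control (blue) and Mettl3-CKO (orange) libraries. Points are 1 library each and bars are exact Poisson 95% intervals; the RPC-like point of Rbm15 in the Mettl3-CKO library stands at 178 CPM, and Zc3h13 and Rbm15b order the classes differently from each other.

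Rbm15, which binds RNA and brings the complex to its targets, was highest in RPC-like cells in both libraries. In the control library it was at 71.5 CPM (59.1 to 85.8) in RPC-like cells and between 32.9 and 44.1 CPM in the other 7 classes. RPC-like cells were 1.62 times (1.24 to 2.11) the next class, neurogenic progenitor-like cells. None of the lower neighbours in the order differed from each other beyond counting error. In the mutant library RPC-like cells were again first, at 178 CPM (161 to 195), and 2.16 times (1.85 to 2.53) the next class.

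Compared between libraries, the Rbm15 ratio was largest in RPC-like, Müller-like and neurogenic progenitor-like cells. It was 2.48 (2.02 to 3.07) in RPC-like cells, where 60 of 8501 genes, or 0.706%, had a higher ratio and 9.29% reached 1.5-fold. In Müller-like cells Rbm15 was at 34.9 CPM (28.5 to 42.5) in the control and 81.8 CPM (70.2 to 94.7) in the mutant library, a ratio of 2.34 (1.82 to 3.02), where 10.6% of genes reached 1.5-fold. In neurogenic progenitor-like cells it was at 44.1 CPM (36.5 to 52.8) and 82.2 CPM (72.4 to 92.9), a ratio of 1.86 (1.49 to 2.34), against 5.96% of genes. In each of these 3 classes the interval stayed above 1 under all 9 alternatives that gave one. No partner gene passed 1.5-fold upward in the other named classes, where 3.82% (precursor-like), 3.56% (rod-like), 7.78% (cone-like), 8.23% (amacrine-like) and 8.53% (microglia-like) of genes did.

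The Rbm15 ratio was smaller in precursors and photoreceptors. It was 1.49 (1.03 to 2.15) in precursor-like cells, from 43.4 to 64.5 CPM, where 5.82% of genes had an interval above 1, and 1.32 (1.03 to 1.70) in rod-like cells, from 35.8 to 47.3 CPM, and these intervals stayed above 1 under 6 and 4 of 9 alternatives. The intervals of the ratios in cone-like cells, 1.19 (0.793 to 1.81), and amacrine-like cells, 1.41 (0.791 to 2.58), included 1. Microglia-like cells held 7 and 8 Rbm15 UMIs, at 32.9 and 32.1 CPM, a ratio of 0.978 (0.310 to 3.17). The ratio in RPC-like cells was 1.88 times (1.37 to 2.58) that in rod-like cells and 2.09 times (1.34 to 3.25) that in cone-like cells. The ratio in Müller-like cells was 1.77 times (1.25 to 2.50) that in rod-like cells. Of 28 pairs of classes, 8 had Rbm15 ratios that differed beyond counting error, each with RPC-like, Müller-like or neurogenic progenitor-like cells against precursor-like, rod-like or cone-like cells. The unnamed cells had a Rbm15 ratio of 1.65 (1.41 to 1.94), and 3.36% of genes reached 1.5-fold in them.

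The share of cells with Rbm15 gave the same picture as its level. Among cells thinned to 2000 UMIs, a Rbm15 UMI was seen in 7.05% (6.17 to 8.01) of control and 12.6% (11.4 to 13.99) of mutant cells. In RPC-like cells these shares were 11.3% (6.45 to 17.9) and 24.9% (19.1 to 31.4), and in Müller-like cells 7.17% (4.55 to 10.6) and 17.5% (12.8 to 23.0). The unthinned shares were 17.1% and 30.6% over all cells. The mutant library held more RPC-like cells, 271 of 3109 against 184 of 3994. With each of the 22 clusters given its weight in the control library, an alternative chosen after seeing the data, the all-cell ratio of Rbm15 was 1.80 and that of the other partners lay between 1.02 and 1.14.

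**Figure D3:**
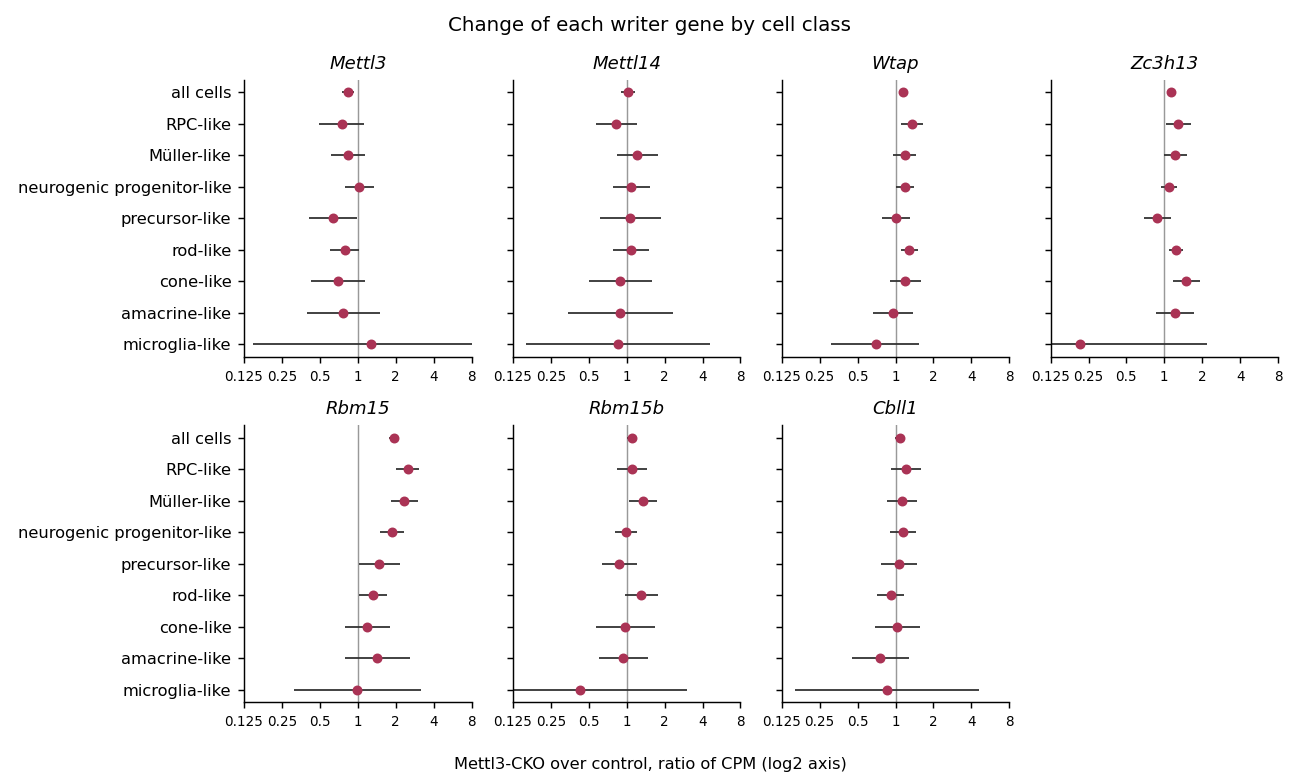
Ratio of Mettl3-CKO to control level for each writer gene, over all cells and in 8 classes, on a log2 axis. Points are ratios of summed UMIs between 1 library each, and lines are exact 95% counting intervals, which stop where they reach an end of the axis. Rbm15 lies to the right of 1 in the upper classes, whereas every line of Mettl14 and Cbll1 crosses 1.

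Wtap had the flattest pattern among the more abundant writer genes. In the control library it ranged from 68.2 CPM (59.0 to 78.4) in Müller-like cells to 109.7 CPM (92.2 to 130) in precursor-like cells. No neighbours in the order differed beyond counting error, but the highest class was 1.61 times the lowest (1.29 to 2.01). It was higher in the mutant library in RPC-like cells, from 90.6 to 122 CPM (ratio 1.35, 1.10 to 1.65), in neurogenic progenitor-like cells, from 92.6 to 111 CPM (ratio 1.19, 1.01 to 1.41), and in rod-like cells, from 92.8 to 119 CPM (ratio 1.28, 1.10 to 1.501). An interval above 1 was seen in 12.9%, 11.9% and 9.27% of genes in these classes. For Wtap it stayed above 1 under 8, 5 and 7 of 9 alternatives. In precursor-like cells Wtap was level, at a ratio of 1.01 (0.785 to 1.30).

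Zc3h13, the nuclear retention factor, was lower in RPC-like, Müller-like and microglia-like cells than in the other named classes. In the control library it was at 134 CPM (123 to 147) in rod-like cells, 122 CPM (103 to 142) in precursor-like cells, 115 CPM (103 to 129) in neurogenic progenitor-like cells, 112 CPM (90.7 to 137) in cone-like cells and 106.7 CPM (81.0 to 138) in amacrine-like cells. RPC-like cells at 72.1 CPM (59.7 to 86.4) and Müller-like cells at 65.0 CPM (56.1 to 75.0) lay below these, and the step from amacrine-like to RPC-like cells was 1.48-fold (1.06 to 2.04). Microglia-like cells were lowest, with 4 UMIs in the control and 1 UMI in the mutant library. In the mutant library Zc3h13 was higher in cone-like cells, at 167 CPM (147 to 189) and a ratio of 1.49 (1.17 to 1.91), in RPC-like cells, at a ratio of 1.29 (1.03 to 1.63), and in rod-like cells, at a ratio of 1.24 (1.08 to 1.41). These intervals stayed above 1 under 8, 4 and 7 of 9 alternatives. In cone-like cells 9.88% of genes had an interval above 1, and their median depth differed between the libraries, 8298 and 13003 UMIs per cell. Precursor-like cells had a Zc3h13 ratio of 0.882 (0.688 to 1.13).

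Rbm15b was ordered differently from Rbm15 and from Zc3h13. In the control library it was at 75.4 CPM (54.1 to 102) in amacrine-like cells, 75.0 CPM (60.7 to 91.7) in precursor-like cells and 73.2 CPM (63.3 to 84.2) in neurogenic progenitor-like cells. It was at 55.5 CPM (44.6 to 68.2) in RPC-like and 42.9 CPM (35.7 to 51.1) in Müller-like cells, and only at 28.3 CPM (18.1 to 42.1) in cone-like and 26.1 CPM (21.2 to 31.8) in rod-like cells. Rod-like cells thus held Rbm15b at a low level and Zc3h13 at a high level for these genes. Between the libraries, the interval of the Rbm15b ratio lay above 1 only in Müller-like cells, from 42.9 to 58.0 CPM (ratio 1.35, 1.05 to 1.75), where 17.8% of genes had such an interval. It stayed above 1 under 7 of 9 alternatives.

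Mettl14 and Cbll1 gave no class with a ratio beyond counting error in either direction. Mettl14 ranged from 18.4 to 33.9 CPM over the classes of the control library, with RPC-like cells first in both libraries, and no neighbours in the order differed. Its ratio was 0.826 (0.572 to 1.20) in RPC-like cells and 1.22 (0.836 to 1.76) in Müller-like cells. Cbll1 ranged from 18.8 CPM in microglia-like cells to 62.4 CPM (49.4 to 77.7) in precursor-like cells, and its class ratios lay between 0.756 (0.448 to 1.27) in amacrine-like and 1.21 (0.915 to 1.61) in RPC-like cells. No partner gene had an interval below 1 in any named class, while 7.79% (RPC-like), 9.70% (Müller-like), 8.31% (neurogenic progenitor-like), 6.14% (precursor-like), 7.01% (rod-like), 7.84% (cone-like), 6.64% (amacrine-like) and 11.7% (microglia-like) of genes had one.

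Summed over the 7 genes, writer UMIs were most abundant in precursor-like cells of the control library, at 485 CPM (447 to 525), and least abundant in Müller-like cells, at 313 CPM (293 to 334), and microglia-like cells, at 192 CPM (138 to 261). In the mutant library RPC-like cells came first, at 563 CPM (534 to 593), against 402 CPM (372 to 434) in the control library, a ratio of 1.40 (1.28 to 1.54). In RPC-like cells Rbm15 gave 116 of 652 writer UMIs in the control and 444 of 1408 in the mutant library.

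Some Müller-like, neurogenic progenitor-like and precursor-like cells formed subclusters found nearly only in the mutant library, from variable genes that left out all m6A genes. They held 76 of 340 Müller-like cells of that library (with 2 control cells), 60 of 423 neurogenic progenitor-like cells and 53 of 186 precursor-like cells (no control cell in either). Pooled over the 3 classes, Mettl3 was at 35.1 CPM (26.1 to 46.1, 51 UMIs) in these cells, at 36.1 CPM (31.0 to 41.7, 179 UMIs) in the other mutant cells and at 40.4 CPM (35.8 to 45.4, 276 UMIs) in control cells. Mettl3 in the mutant-only cells was 0.973 (0.698 to 1.33) of that in the other mutant cells, so their Mettl3 3′ ends did not set them apart at this depth.

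Rbm15 was higher in the mutant-only cells than in the other mutant cells. It was at 40.1 CPM (35.5 to 45.1) in control cells, 71.1 CPM (63.9 to 78.9) in the other mutant cells and 106 CPM (89.9 to 124) in the mutant-only cells of the 3 classes. The mutant-only cells were 1.49 times (1.22 to 1.81) the other mutant cells, which were themselves 1.77 times (1.51 to 2.08) the control cells. An interval above 1 was seen in 15.1% of 9725 genes for the former comparison and in 14.3% of 10732 genes for the latter. The subclusters were drawn from the transcripts of the same cells, so these values describe them and test nothing. In Müller-like cells the steps were 34.9, 72.1 and 103 CPM, in neurogenic progenitor-like cells 44.1, 74.5 and 126 CPM, and in precursor-like cells 43.4, 57.9 and 81.7 CPM. In precursor-like cells the intervals of both steps, 1.33 (0.881 to 2.01) and 1.41 (0.831 to 2.35), included 1.

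Zc3h13 was also higher in the mutant-only cells in 2 of the 3 classes. An interval above 1 between mutant-only and other mutant cells was seen in 12.3% of genes in Müller-like, 11.8% in neurogenic progenitor-like and 8.81% in precursor-like cells. In Müller-like cells it was at 65.0 CPM in the control, 64.8 CPM in the other mutant cells and 112 CPM (88.4 to 140.4) in the mutant-only cells, which was 1.73 times (1.26 to 2.36) the other mutant cells. In neurogenic progenitor-like cells the mutant-only cells were 1.52 times (1.18 to 1.94) the others, and in precursor-like cells 0.925 times (0.593 to 1.41). Outside these subclusters, Zc3h13 in the pooled mutant cells of these 3 classes was 1.04 times the control (0.928 to 1.18). Cone-like, RPC-like and rod-like cells had no subcluster that met the limit of 95% mutant cells. Their Zc3h13 ratios to control were 1.49, 1.29 and 1.24. At resolution 0.5 their most mutant subclusters held 69.5%, 79.0% and 78.8% mutant cells. A neurogenic progenitor-like subcluster of 11 control and 79 mutant cells (87.8%) also missed the limit and was counted with the other mutant cells. In its full set of cells, the study reported an RPC cluster made up of mutant cells alone. Cbll1 was higher in the mutant-only subcluster of precursor-like cells, 1.71 times the others (1.03 to 2.80), and not in the other 2 classes beyond counting error. At subcluster resolution 1 the precursor-like subcluster held 3 control and 53 mutant cells (94.6%), so it no longer met the 95% limit and the precursor-like values have no counterpart there. The Müller-like subcluster was deeper, with a median of 8708.5 UMIs per cell against 4212 in the other mutant cells and 5695 in the control, whereas the medians of the other 2 subclusters lay close to those of their classes. Xist was seen in 67.7% of the mutant-only cells and in 52.1% of the others, and the part of depth and sex in these differences was not tested.

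**Figure D4:**
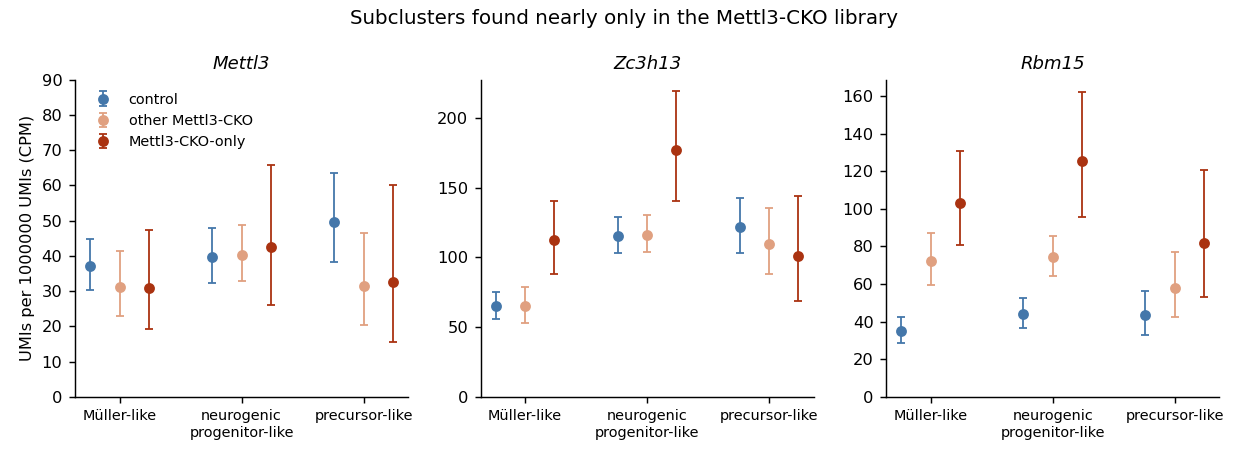
Level of Mettl3, Zc3h13 and Rbm15, in CPM, in control cells (blue), in the other Mettl3-CKO cells (light) and in Mettl3-CKO-only subclusters (dark red) of 3 classes. Bars are exact Poisson 95% intervals of 1 library; Rbm15 steps up from control to other Mettl3-CKO to Mettl3-CKO-only cells, with steps in precursor-like cells that are within counting error, and Mettl3 does not step between the Mettl3-CKO groups.

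Because the libraries differed in sex makeup, each value was also taken in mutant cells with and without Xist, against control cells, all with at least 4000 UMIs. UMIs of 4 Y-linked genes were seen in 79.4% of these control cells, 76.2% of the mutant cells without Xist and 14.9% of those with Xist. The Rbm15 ratio to control was 1.82 (1.65 to 2.01) in cells with Xist and 2.15 (1.93 to 2.41) in cells without. The Mettl3 ratio was 0.873 (0.771 to 0.988) and 0.767 (0.649 to 0.904). Wtap was likewise higher in both groups, at 1.16 (1.08 to 1.25) and 1.13 (1.04 to 1.24), whereas the Zc3h13 ratio was 1.16 (1.08 to 1.23) in cells with Xist and 1.04 (0.959 to 1.14) in cells without.

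The pattern of Mettl3 over classes was most like that of Mob4, Wdr5b, Clk4, Atg12 and Eme2 among 10315 genes with at least 200 UMIs. Their Pearson r with Mettl3 over 16 points, 8 classes in each of the libraries, lay between 0.942 and 0.951. Among the partners, r was 0.827 for Cbll1, 0.804 for Zc3h13, 0.657 for Rbm15b, 0.518 for Wtap, 0.408 for Mettl14 and 0.064 for Rbm15. The points share their libraries and their depth, and the low microglia-like points rest on 2 and 3 Mettl3 UMIs. Without these, over 14 points, r for the 5 genes lay between 0.701 and 0.772, that for the partners other than Rbm15 lay between -0.199 and 0.159, and that for Rbm15 was -0.703.

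Of 22 other genes of m6A methylation, removal and reading, 14 were higher and 8 lower over all cells of the mutant library, with a median ratio of 1.04 and a range from 0.902 to 1.64. The interval lay above 1 for 9 of the 22, against 23.1% of all 13146 genes, and below 1 for 1, against 17.4%, and the median ratio of all genes was 1.01. Virma, the scaffold of the writer complex, was at 35.9 CPM in the control and 42.2 CPM in the mutant library, a ratio of 1.18 (1.06 to 1.30). It overlaps the antisense gene Gm11831. Mettl16, a separate m6A methyltransferase, had a ratio of 1.26 (1.16 to 1.37). Among the readers, Igf2bp1 had 1.64 (1.43 to 1.88), Ythdf2 1.34 (1.27 to 1.42), Ythdf1 1.23 (1.14 to 1.33), Ythdc1 1.22 (1.17 to 1.27), Igf2bp3 1.12 (1.03 to 1.22), Prrc2a 1.07 (1.01 to 1.13) and Hnrnpa2b1 1.03 (1.01 to 1.05). Elavl1, an RNA-binding protein that stabilises mRNA, was lower, at 0.927 (0.883 to 0.972). Rbm15 thus had the highest ratio of the 29 writer and other m6A genes, followed by Igf2bp1.

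The sequences of the writer transcripts held the core m6A motif GGACT at different densities. This motif, searched on the transcript strand, was found in 87.1% of the 21795 genes with an annotated principal transcript, at a median of 1.02 per 1000 bases. Wtap held 5 copies (2.43 per 1000 bases), Mettl3 held 4 (1.98), Cbll1 held 5 (1.28), Zc3h13 held 7 (1.14), Mettl14 held 3 (1.09) and Rbm15b held 6 (0.922). Rbm15 held 2 copies, or 0.461 per 1000 bases, the lowest density of the 7. A match is only a stretch of letters, and no methylation was measured in these libraries. The study mapped m6A in mouse retinas from other samples, by sequencing RNA pulled down with an m6A antibody. Those data were not used here, so the motif counts do not say how far any writer transcript is methylated.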

How the data were processed

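Retinas of postnatal day 7 mice were dissociated and captured in droplets, and 1 library was made per genotype. As far as the study's methods and the submitters' processing notes tell, the authors aligned trimmed reads to mm10 (GRCm38) and used Cell Ranger 3.1.0 and Seurat 3.1. The deposited values are raw UMI counts per gene and cell, without normalization. Of the entries that each matrix announces in its size line, 66.4% and 44.5% could be read, so 3994 of 5995 control and 3109 of 6992 Mettl3-CKO cells were used, and the other cells were not analysed here. Cells stood in alphabetical order of barcodes, and 5 barcodes were shared between the libraries. No cell was left out. The stated filter of the study (over 200 genes, under 20% mitochondrial UMIs) was not met by 237 and 86 cells, which were left out in an alternative.

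The 7 members, the lists and the naming limits were chosen with earlier results of these data known. Leiden clustering (resolution 1, leidenalg 0.10.2 with igraph 0.11.9; scanpy 1.11.5) used 20 neighbours and 10 principal components of log counts, each cell scaled to 10000, over 2000 variable genes, with members, other m6A genes and sex-linked genes left out. A cluster was named from at least 3 markers 1.5-fold higher than in other cells and seen in at least 20% of its cells. The mean log2 fold of the marker list also had to reach 0.5, or 1 with no marker among the top 10 genes. Clusters stayed unnamed where another list had as many markers among the top 10, or where depth was low and no marker was among them. Classes were reclustered at resolution 0.5, and a subcluster with at least 30 cells and at least 95% from the Mettl3-CKO library was called Mettl3-CKO-only. The automatic threshold of the doublet caller marked very few cells, so the 5% of cells with the highest doublet scores were left out as an alternative.

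UMIs were summed per class and library and divided by all UMIs outside the 13 mitochondrial genes. Levels carry exact Poisson, ratios exact conditional binomial and shares Clopper-Pearson intervals at 95% (scipy 1.17.1). Ratios of 2 class ratios carry normal intervals on the log scale. The ratio script was tested on simulated data. Background shares count genes with at least 50 UMIs over both libraries. Named genes were the members, Virma, other m6A genes whose interval left out 1, the 5 genes most like Mettl3, and genes that overlap a member. Annotation and transcript sequences came from GENCODE on GRCm38, with the longest principal transcript per gene.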

Additional observations from a re-analysis of the deposited data

How the results depend on the processing

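No paired analysis was possible because each group is 1 library, and for the same reason no replicate could be left out. The direction of the all-cell ratio of Mettl3, Wtap, Zc3h13, Rbm15, Rbm15b and Cbll1 was the same under every alternative run. The interval of the ratio still left out 1 under all 6 alternatives that gave one for Rbm15 and Wtap, under 5 for Mettl3, 4 for Zc3h13 and 3 for Rbm15b. For values over all cells, the Mettl14 ratio was 0.894 against Mettl3-CKO cells without Xist and 0.866 in cells thinned to 2000 UMIs, on the other side of 1 from its main value, with intervals that include 1. The Zc3h13 ratio was 1.04 and the Rbm15 ratio 2.15 against cells without Xist, and the Rbm15b ratio was 1.21 in thinned cells. By class, the Mettl3 ratio in thinned cells was 1.61 in Müller-like, 0.318 in precursor-like and 0.275 in cone-like cells, on few UMIs. The level of Rbm15b in control microglia-like cells over other cells turned to 1.08 as a mean of per-cell values. With a minimum of 200 UMIs in place of 50, 328 genes in place of 692 were at least 1.5-fold higher and 163 in place of 432 lower; with a minimum of 20, 749 were lower. The cause of these moves was not tested. Of the values for single classes, partners and shares, 787 stayed within counting error of the main value, and 45 moved beyond it. The control and Mettl3-CKO libraries differ in animals, sex makeup and capture as well as in genotype, and these cannot be told apart with 1 library each. Depth limits Mettl3, Mettl14 and every microglia-like value most.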
